A study of Mus musculus with 4 samples.

Results

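Lysosome and autophagy genes were followed in mouse lymphoma cells in which the MYC oncogene was on or had been shut off. The set had 37 listed genes: 20 for lysosomal enzymes and membrane proteins, 15 for the autophagy machinery, and 2 for transcription factors, Tfeb and Tfe3. A listed gene was analysed when the probe annotation held it by symbol or synonym and 1 or more of its probes was detected, with a detection p-value of at most 0.01, on 1 or more arrays. This left 35 genes, of which 19 were lysosomal, 14 were autophagy genes and 2 were the TFEB factors, among 8674 genes analysed in all. Gla, the lysosomal alpha-galactosidase, and Gabarapl1, a GABARAP-family protein, were not detected on any array, with lowest detection p-values of 0.450 and 0.404. Just inside the limit, Ctss reached 0.0085 and Tfeb 0.0096 on 1 array each. Detection on all 4 arrays held for 27 of the 35 genes, 15 of them lysosomal and 11 autophagy genes.

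The lysosome is the acidic compartment in which hydrolases break down proteins, lipids and sugars, and a proton pump, the V-ATPase, acidifies it. In autophagy a membrane closes around cytoplasm, is coated with lipid-linked LC3 and GABARAP proteins, and fuses with the lysosome, which digests the contents. TFEB and TFE3 are transcription factors that, when mTORC1 activity at the lysosome falls, enter the nucleus and switch on many of these genes through E-box sequences. MYC, together with its partner MAX, binds the same core E-box letters.

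The cells were a conditional FVB/N lymphoma culture in which doxycycline (DOX) switches the MYC transgene off. They carried either an empty MSCV retroviral vector (control cells) or MSCV with miR-17-92, a microRNA cluster that MYC itself induces (miR-17-92 cells). Each kind was measured on 1 array without DOX (MYC on) and on 1 array after DOX at 20 ng/ml for 48 hours (MYC off), so the 4 groups were control without DOX, miR-17-92 without DOX, control with DOX and miR-17-92 with DOX. All 4 cultures shared the FVB/N background, the conditional MYC transgene and a viral vector, and the labels gave neither the promoter that drives MYC nor whether separate clones were used.

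Since a group is 1 array, differences between groups cannot be set against a spread between replicates, and no test is given. A ratio compares those arrays only, as the log2 ratio of background-corrected, quantile-normalized signals, and a 2-fold difference serves only as a mark of size. Both arrays without DOX were on 1 slide and both arrays with DOX on the other, so in a DOX effect the drug cannot be told apart from the slide, while each comparison of miR-17-92 with control cells lay within a slide. Array depth was similar: 13251 to 14864 of 45281 probes were detected, and the median raw signal ran from 119.0 to 159.5 units. The Myc probe was detected without DOX and not with it, a difference of at least 6.28-fold in control cells and 5.80-fold in miR-17-92 cells. The labels name no lineage beyond lymphoma. T-cell markers were present, with 7 of 10 on the array detected without DOX and 9 of 10 with DOX, whereas 0 of 4 B-cell and 0 of 3 erythroid markers were detected on any array. Of 10 myeloid markers, which matter because macrophages are rich in lysosomes, 0 were detected without DOX and 1, Itgam, with it. The summed raw signal of the myeloid markers was 1358 and 1568 without DOX and 1419 and 1199 with DOX, in control and miR-17-92 cells in that order. Most of that sum came from undetected probes, so it cannot show whether myeloid RNA differed. Itgam itself was at least 1.75-fold higher with DOX in control cells and at least 1.13-fold higher in miR-17-92 cells. With DOX it was 1.70-fold lower in miR-17-92 than in control cells. Of 4 natural killer markers 1 (Prf1) was detected on every array, and of 5 stromal markers 2 (Vim and Pecam1). All 3 had higher signals with DOX in both lines, by 1.35-fold to 4.47-fold. The part of these 3 and of Itgam in the results was not tested, and in bulk RNA fewer cells of a type and less RNA per cell cannot be told apart.

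The first question was what happened to these genes when MYC was shut off in control cells. Lysosomal genes were mostly higher with DOX: 13 of 19 had a ratio above 0, where 52.2% of all genes did, and their median log2 ratio was 0.84 beside 0.06 for all genes. Signals were 2-fold or more higher for 7 of 19 (Psap, Ctsl, Mcoln1, Man2b1, Npc2, Atp6v0d1 and Npc1), against 19.9% of all genes, and 2-fold or more lower for 2 of 19 (Gusb and Lamp2), against 18% of all genes. Autophagy genes had a like median, 0.80, with 11 of 14 above 0, 4 of 14 at 2-fold or more higher (Map1lc3a, Map1lc3b, Atg12 and Uvrag) and 1 of 14 lower (Wipi1). In this comparison 37.9% of all genes passed 2-fold in either direction, against 9 of 19 lysosomal and 5 of 14 autophagy genes. As shares, 36.8% of lysosomal and 28.6% of autophagy genes were 2-fold higher. With the authors' processed values, in which the median over all genes was -0.12, these counts were 4 of 19 and 1 of 14 against 10.6% of all genes, and among all 2-fold calls 40.4% were higher in place of 52.4%.

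Ctsl, Mcoln1 and Map1lc3a passed the detection filter only through the arrays with DOX, a selection that favours a higher signal there, so their direction is a description. Hexa and Tfeb also passed only through arrays with DOX, near the detection limit, and Hexa had log2 ratios of -0.20 in control and 0.40 in miR-17-92 cells. Among the 15 lysosomal genes detected on all 4 arrays, 5 were 2-fold higher and 2 were 2-fold lower in control cells, with a median of 0.84. Among the 11 such autophagy genes, 3 were higher and 1 was lower, with a median of 0.76. Over the 6946 genes detected on all 4 arrays, 17.2% were 2-fold higher and 18.3% were 2-fold lower. Where an undetected side was replaced by its bound, 6 of 19 lysosomal and 3 of 14 autophagy genes were 2-fold higher. Bounds were not computed over all genes, so no like share stands beside these counts.

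**Figure D1:**
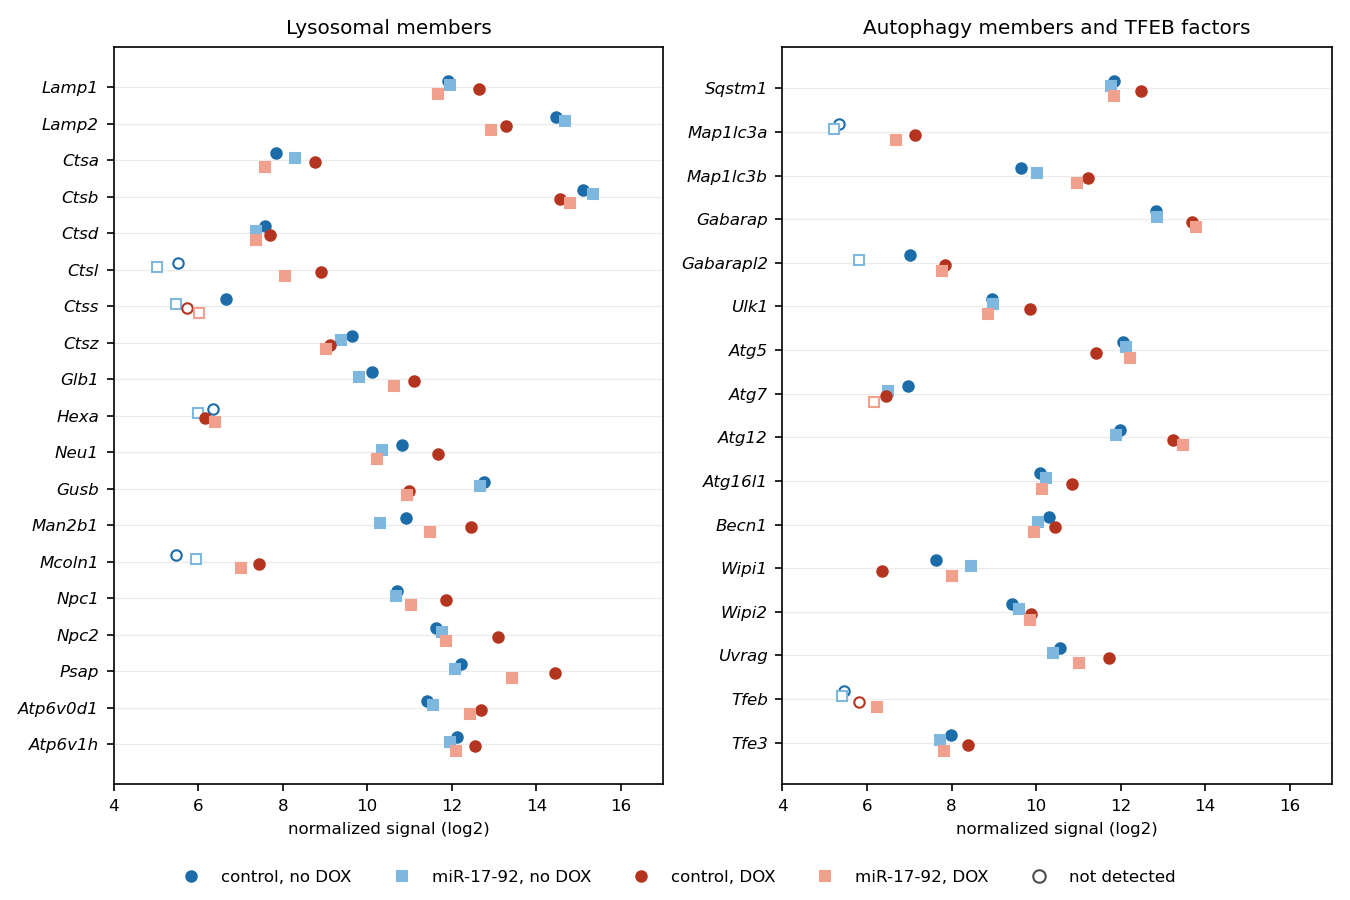
Normalized log2 signal of each analysed member on each of the 4 arrays, with lysosomal members on the left and autophagy members and the TFEB factors on the right. Circles are control cells, squares miR-17-92 cells, blue no DOX and red DOX, and open symbols mark arrays on which the probe was not detected. In the rows of Psap and Npc2 the control array with DOX lies furthest right, while Gusb and Lamp2 lie further left on both arrays with DOX than on both without.

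Among the luminal proteins of the lysosome, Psap was detected on all 4 arrays and was higher with DOX in both lines. It encodes prosaposin, the precursor of the saposins that present sphingolipids to hydrolases. Its log2 signal was 12.22 in control cells without DOX, 12.09 in miR-17-92 cells without DOX, 14.45 in control cells with DOX and 13.43 in miR-17-92 cells with DOX. Both arrays with DOX were above both without, and the control array with DOX was the highest. With DOX it was 4.69-fold higher in control cells and 2.54-fold higher in miR-17-92 cells, and the second Psap probe gave log2 ratios of 1.93 and 1.42.

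The cathepsins, the lysosomal proteases, fell on both sides of 0. Of 6 measured, 3 had a ratio above 0 in control cells, and their median was -0.20. Ctsl, the cysteine protease cathepsin L, was detected with DOX only: its log2 signal was 5.53 and 5.02 without DOX, neither detected, and 8.90 in control and 8.06 in miR-17-92 cells with DOX. Set against the lowest detected signal of the arrays without DOX, Ctsl was at least 4.87-fold higher in control cells and at least 2.98-fold higher in miR-17-92 cells. Ctsb, cathepsin B, ran the other way, at 15.10 and 15.34 without DOX and 14.57 and 14.80 with DOX in control and miR-17-92 cells, 1.44-fold and 1.45-fold lower. Ctsz, cathepsin Z, had log2 ratios of -0.51 and -0.35, and Ctsd, the aspartic protease cathepsin D, 0.12 and 0.01. Ctss, cathepsin S of antigen-presenting cells, was detected in control cells without DOX alone, so no ratio with a measured value on both sides exists for it.

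Among the glycosidases, which remove sugars from glycoproteins and glycolipids, Man2b1 and Gusb stood at opposite ends. Man2b1, the lysosomal alpha-mannosidase, had log2 signals of 10.91 and 10.30 without DOX and 12.46 and 11.49 with DOX in control and miR-17-92 cells. It was 2.93-fold higher with DOX in control cells and 2.28-fold higher in miR-17-92 cells. Gusb, beta-glucuronidase, had 12.77 and 12.67 without DOX and 10.996 and 10.93 with it. Its arrays separated by DOX and barely by vector: 3.42-fold lower in control cells and 3.35-fold lower in miR-17-92 cells. All 4 Gusb probes gave this direction, with log2 ratios from -1.51 to -2.36 in control cells and from -1.74 to -2.72 in miR-17-92 cells. Glb1, beta-galactosidase, was just under 2-fold, at 1.98-fold higher in control cells and 1.78-fold higher in miR-17-92 cells. Hexa, a subunit of beta-hexosaminidase, was detected with DOX only, near the detection limit, and no fold is given.

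The membrane and cholesterol-transport proteins were higher with DOX in control cells for 4 of 5 genes, where 52.2% of all genes were, with a median log2 ratio of 1.14. On the genes detected on all 4 arrays, which leaves out Mcoln1, it was 3 of 4 with a median of 0.93. Npc1 and Npc2 hand cholesterol out of the lysosome, Npc2 in the lumen and Npc1 in the membrane. Npc2 had log2 signals of 11.62 and 11.76 without DOX, 13.10 in control cells with DOX and 11.87 in miR-17-92 cells with DOX, so that only the control array with DOX stood apart. With DOX it was 2.79-fold higher in control cells, and the miR-17-92 arrays were within 1.08-fold. Npc1 had 10.72 and 10.68 without DOX, 11.85 in control and 11.05 in miR-17-92 cells with DOX, a 2.20-fold and a 1.29-fold difference. Its weaker probes gave larger log2 ratios in both lines, 1.90 and 1.92 in control cells and 0.94 and 0.55 in miR-17-92 cells. Mcoln1, the calcium channel mucolipin-1, was detected with DOX only, at 7.43 and 7.02, at least 1.75-fold and at least 1.45-fold higher. It therefore counts among the 2-fold genes by its fitted log2 ratio of 1.96, not by its bound.

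The paired membrane glycoproteins Lamp1 and Lamp2, which line the inner face of the lysosomal membrane, differed in opposite directions in control cells. Lamp1 had log2 signals of 11.90 and 11.95 without DOX, 12.63 in control cells with DOX and 11.68 in miR-17-92 cells with DOX. The control array with DOX was the highest and the miR-17-92 array with DOX the lowest of the 4. Lamp2 had 14.48 and 14.69 without DOX and 13.29 and 12.93 with DOX, 2.27-fold lower in control cells and 3.38-fold lower in miR-17-92 cells. Of the 6 Lamp2 probes, 5 were detected on all 4 arrays, and their log2 ratios ran from -1.18 to -0.07 in control cells and from -2.03 to -1.65 in miR-17-92 cells. The probes agreed on the direction and, in control cells, not on the size; which Lamp2 transcript form each reads was not analysed here. Of the V-ATPase subunits, Atp6v0d1 of the membrane sector had 11.42 and 11.56 without DOX and 12.69 and 12.44 with it, 2.43-fold and 1.84-fold higher. Its weaker probes gave log2 ratios of 0.86, 0.97 and 1.30 in control and 0.91, 0.56 and 0.99 in miR-17-92 cells. With the authors' processed values its effect in control cells was 0.96, under 2-fold. For miR-17-92 over control with DOX the weaker probes had 0.11, -0.19 and 0.20, beside -0.25 for the brightest. Atp6v1h of the cytosolic sector was 1.33-fold and 1.11-fold higher.

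The promoters of these lysosomal genes are shown because many of them hold the E-box CACGTG, the core of the sequence through which TFEB acts. Windows reaching from 250 bases before to 50 bases after a gene start, from RefSeq on GRCm38.p6, were at hand for 30 of the 37 listed genes, some with several windows, and a gene counted once if any held the word. CACGTG, which reads the same on both strands, lay in the window of 8 of 17 lysosomal genes (47.1%) and 2 of 11 autophagy genes (18.2%), beside 12.4% of the 7140 analysed genes with a window and 8.09% of all 27025 genes. The longer TCACGTG, searched on both strands and always containing the shorter word, lay in 7 of 17 lysosomal genes (41.2%), 1 of 11 autophagy genes (9.09%) and 7.62% of analysed genes. For GTCACGTG, which contains both, the shares were 41.2%, 9.09% and 5.31%. Neither Tfeb nor Tfe3 had CACGTG in the window. The sequences below run 5′ to 3′ on the strand of the gene, from 250 bases before the start to base 20 after it, with CACGTG in capitals. Ctsl, Mcoln1 and Atp6v0d1 were 2-fold higher with DOX in control cells and hold the word. Lamp1 is added for its 4 copies and Psap as a 2-fold higher gene with none, both chosen after their values and sites were seen.
Ctsl, chr13:64370501-64370770, minus strand: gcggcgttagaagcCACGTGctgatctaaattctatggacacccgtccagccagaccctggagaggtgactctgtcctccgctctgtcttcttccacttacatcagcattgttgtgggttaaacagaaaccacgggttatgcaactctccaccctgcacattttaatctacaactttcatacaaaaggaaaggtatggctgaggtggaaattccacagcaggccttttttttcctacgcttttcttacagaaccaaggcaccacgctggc
Mcoln1, chr8:3500269-3500538, plus strand: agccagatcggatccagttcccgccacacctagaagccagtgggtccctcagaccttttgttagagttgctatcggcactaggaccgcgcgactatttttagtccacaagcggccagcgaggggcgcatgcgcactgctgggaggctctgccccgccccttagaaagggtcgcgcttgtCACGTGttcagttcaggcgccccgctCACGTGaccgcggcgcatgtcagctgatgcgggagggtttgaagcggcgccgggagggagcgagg
Atp6v0d1, chr8:105566045-105566314, minus strand: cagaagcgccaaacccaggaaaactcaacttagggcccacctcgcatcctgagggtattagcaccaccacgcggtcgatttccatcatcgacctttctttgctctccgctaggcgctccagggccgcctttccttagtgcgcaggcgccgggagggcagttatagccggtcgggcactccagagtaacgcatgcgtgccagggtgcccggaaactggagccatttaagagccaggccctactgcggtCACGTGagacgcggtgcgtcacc
Lamp1, chr8:13158911-13159180, plus strand: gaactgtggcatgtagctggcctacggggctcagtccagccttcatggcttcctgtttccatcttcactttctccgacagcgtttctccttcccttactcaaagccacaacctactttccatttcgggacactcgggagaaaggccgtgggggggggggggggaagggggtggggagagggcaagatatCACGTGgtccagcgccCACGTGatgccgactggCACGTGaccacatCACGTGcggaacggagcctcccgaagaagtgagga
Psap, chr10:60277378-60277647, plus strand: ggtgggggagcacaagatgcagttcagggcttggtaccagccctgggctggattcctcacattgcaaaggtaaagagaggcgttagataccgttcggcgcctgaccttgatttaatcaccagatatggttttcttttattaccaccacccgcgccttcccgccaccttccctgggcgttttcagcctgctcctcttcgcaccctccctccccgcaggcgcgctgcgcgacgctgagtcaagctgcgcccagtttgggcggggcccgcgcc

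In Lamp1 the 4 copies begin 61, 45, 28 and 15 bases before the start, in Mcoln1 the 2 copies 71 and 45 bases before it, in Atp6v0d1 3 bases before it, and in Ctsl 236 bases before it. The other lysosomal genes with the word were Ctsa, Ctsd, Glb1 and the undetected Gla, and the autophagy genes were Atg5 and Atg7. On the lysosomal genes detected on all 4 arrays, the 5 with CACGTG had a median log2 DOX effect of 0.92 in control cells (1 of them 2-fold higher and 0 lower). The 7 without it had a median of 0.84 (3 higher and 2 lower). In miR-17-92 cells these medians were 0.01 with the word and -0.12 without, so they lay close together in both lines. With the genes not detected on every array included, the medians were 0.98 for 7 genes with the word and -0.20 for 9 without in control cells, and 0.83 and 0.11 in miR-17-92 cells. Those wider sets add Ctsl and Mcoln1, which passed the filter only through the arrays with DOX, to the genes with the word, and Ctss and Hexa to those without. Among all genes detected on all 4 arrays the medians in control cells were -0.09 for 744 genes with the word and 0.03 for 5016 without. A word in a window is a description of the letters, not evidence that a factor binds there, and no match says only that these letters are absent from the window.

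**Figure D2:**
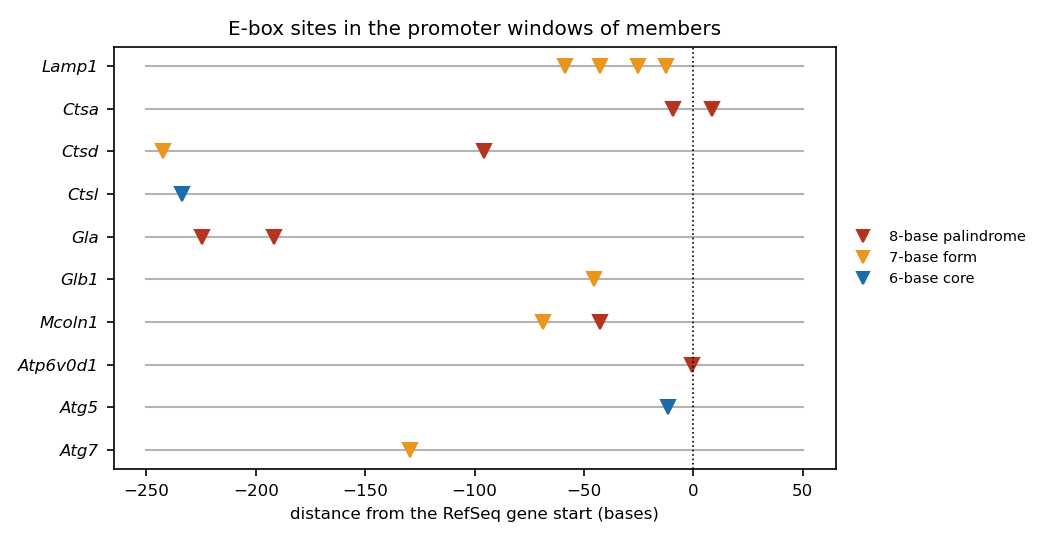
Position of each E-box in the promoter windows of the 10 listed genes that hold 1 or more, in bases from the RefSeq gene start, with 0 marked by the dotted line. Colours give the longest form matched, the 6-base core CACGTG, the 7-base TCACGTG or its 8-base palindrome. Lamp1 has 4 sites and Ctsl and Atg5 hold the 6-base core alone.

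Among autophagy genes, the LC3 and GABARAP family, whose members are attached to the autophagosome membrane, was higher with DOX for 4 of 4 analysed genes in both lines, where 52.2% and 54.2% of all genes were, with a median log2 ratio of 1.22 in control and 1.21 in miR-17-92 cells. Of the 4, only Map1lc3b and Gabarap were detected on all 4 arrays. These 2 were above 0 in both lines, where 50.6% and 52.9% of all such genes were. Their medians were 1.22 in control and 0.94 in miR-17-92 cells. Map1lc3a passed the detection filter only through arrays with DOX, so its direction is a description. Map1lc3b, the LC3 form most used to follow autophagy, had log2 signals of 9.64 and 10.02 without DOX and 11.23 and 10.98 with it. It was 3.02-fold higher in control cells and 1.94-fold higher in miR-17-92 cells. Gabarap had 12.85 and 12.86 without DOX and 13.70 and 13.78 with DOX, so its arrays split by DOX and not by vector, at 1.80-fold and 1.90-fold. Gabarapl2 had 7.01 in control cells and 5.82, undetected, in miR-17-92 cells without DOX, and 7.86 and 7.77 with DOX. Its DOX effect was 1.80-fold in control cells and at least 2.43-fold in miR-17-92 cells, the larger value resting on the undetected array. Map1lc3a was detected with DOX only, at 7.13 and 6.68, at least 1.43-fold and at least 1.14-fold higher, so its place among the 2-fold genes comes from its fitted ratio.

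The conjugation proteins, which attach LC3 to lipid, were mixed. Atg12, a ubiquitin-like protein joined to Atg5, had log2 signals of 11.98 and 11.89 without DOX and 13.23 and 13.47 with DOX, 2.38-fold higher in control and 2.98-fold higher in miR-17-92 cells. Atg5, its partner, had 12.07 and 12.13 without DOX, 11.41 in control cells with DOX and 12.22 in miR-17-92 cells with DOX. The control array with DOX was thus the low one, 1.58-fold lower than without DOX, while the miR-17-92 arrays were within 1.07-fold. The second Atg5 probe gave log2 ratios of -0.81 and 0.16. Atg16l1, which directs the conjugation to the membrane, was 1.69-fold higher with DOX in control cells and 1.06-fold lower in miR-17-92 cells. Atg7, the activating enzyme, had weak signals of 6.97 and 6.51 without DOX and 6.45 and 6.17 with DOX, the last not detected.

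Among genes that start the autophagosome, Ulk1, the initiating kinase that mTORC1 inhibits, had log2 signals of 8.95 and 8.98 without DOX, 9.85 in control cells with DOX and 8.86 in miR-17-92 cells with DOX. Only the control array with DOX was high. Uvrag, a partner of Becn1 in the lipid kinase complex, had 10.56 and 10.40 without DOX and 11.72 and 11.01 with DOX, 2.25-fold and 1.53-fold higher. A second, weaker Uvrag probe, detected on 1 array, gave log2 ratios of -1.003 and 1.27, and with the mean of probes the effect in control cells was 0.08 and no longer past 2-fold. Wipi1, which binds the lipid made by that kinase, had 7.64 in control and 8.47 in miR-17-92 cells without DOX, and 6.36 and 8.01 with DOX. It was 2.43-fold lower with DOX in control cells and 1.38-fold lower in miR-17-92 cells, and with DOX it was the autophagy gene with the largest difference between the vectors. Its relative Wipi2 was 1.38-fold and 1.19-fold higher with DOX, and Becn1, the core of the kinase complex, was within 1.11-fold and 1.06-fold. Sqstm1, the cargo receptor p62, had 11.84 and 11.78 without DOX, 12.49 in control cells with DOX and 11.83 in miR-17-92 cells with DOX. With DOX it was 1.57-fold higher in control cells, and the miR-17-92 arrays were within 1.04-fold.

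Of the TFEB factors, Tfe3 had log2 signals of 7.98 in control and 7.72 in miR-17-92 cells without DOX and 8.39 and 7.82 with DOX, 1.33-fold and 1.07-fold higher. Tfeb was detected in miR-17-92 cells with DOX alone, at 6.23. Neither value speaks to the activity of these factors, which is set by phosphorylation and location in the cell.

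In miR-17-92 cells fewer of the lysosomal genes passed 2-fold. Here 4 of 19 were 2-fold higher (Ctsl, Psap, Man2b1 and Mcoln1), against 14.8% of all genes, 27.5% passing in either direction, and 2 of 19 were 2-fold lower (Lamp2 and Gusb), against 12.8%. Their median log2 ratio was 0.15 with 12 of 19 above 0 and 7 of 19 below it, where the median over all genes was 0.09 with 54.2% above and 45.8% below 0. The lysosomal median became -0.06 with the authors' processed values. Autophagy genes had 3 of 14 at 2-fold or more higher (Gabarapl2, Atg12 and Map1lc3a) and 0 of 14 lower, with a median of 0.17 and 9 of 14 above 0. On the genes detected on all 4 arrays the counts were 2 higher and 2 lower of 15 lysosomal genes, with a median of 0.01. They were 1 higher and 0 lower of 11 autophagy genes, with a median of 0.09. Of all genes detected on 4 arrays, 12.3% were 2-fold higher and 12.02% lower. With bounds for undetected sides, 3 of 19 lysosomal and 2 of 14 autophagy genes were 2-fold higher, again with no like share over all genes.

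**Figure D3:**
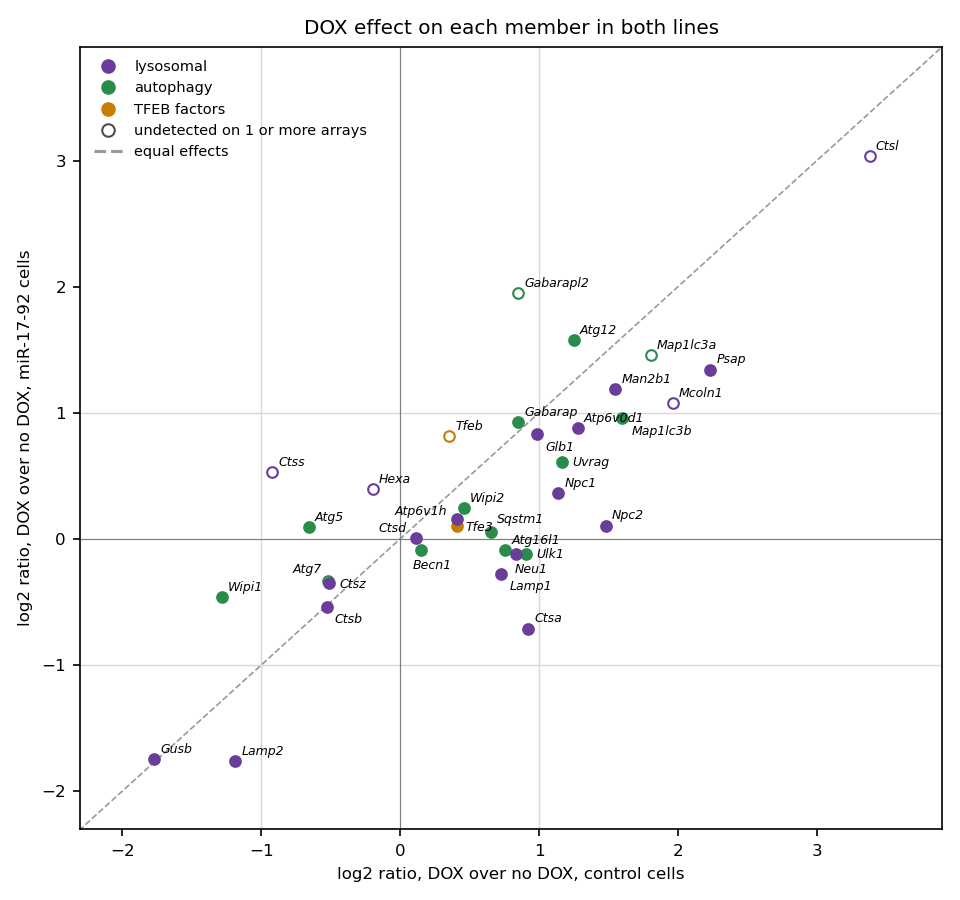
Log2 ratio of DOX over no DOX for each of the 35 analysed members, in control cells (x axis) and miR-17-92 cells (y axis). The dashed line marks equal effects, grey lines mark 2-fold, and open circles mark members undetected on 1 or more arrays. All 13 lysosomal members right of 0 lie below the dashed line, and Gabarapl2 and Atg12 lie above it.

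Set side by side, all 13 lysosomal genes with a ratio above 0 in control cells had a smaller one in miR-17-92 cells. The same held for 8 of 11 autophagy genes (72.7%) and for 3185 of 4532 genes in all (70.3%), the last being the share to read these against. Genes past 2-fold upward in both lines were Psap, Ctsl, Man2b1 and Mcoln1 among lysosomal genes and Atg12 and Map1lc3a among autophagy genes. Ctsl, Mcoln1 and Map1lc3a passed the detection filter only through arrays with DOX. The bounds of Mcoln1 and Map1lc3a were under 2-fold in both lines. A second Man2b1 probe had a log2 ratio of 0.77 in miR-17-92 cells, under 2-fold. Gusb and Lamp2 passed 2-fold downward in both lines. Of all 8674 genes, 980 passed upward in both lines and 893 downward. On genes detected on all 4 arrays, 3 of 27 members passed upward and 2 downward, beside 665 and 697 of 6946 genes. Signs were opposite in the lines for 5 lysosomal and 4 autophagy genes, 25.7% of all members beside 18.7% of all genes.

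Subtracting the control from the miR-17-92 DOX effect asks where the response to MYC loss differed between the vectors. It was below 0 for 15 of 19 lysosomal genes, where 50.2% of all genes were, and its median was -0.36 on the log2 scale beside 0.00 for all genes. Of these, 3 passed 2-fold downward (Ctsa at -1.63, Npc2 at -1.37 and Lamp1 at -1.004), against 4.82% of all genes. The single lysosomal gene past 2-fold upward, Ctss at 1.45, rests on 3 undetected arrays, and 7.1% of all genes passed in that direction (11.9% in either). Autophagy genes had 8 of 14 below 0 and a median of -0.22, with Ulk1 at -1.02 past 2-fold downward and Gabarapl2 at 1.10, undetected on 1 array, past it upward. All 5 membrane and cholesterol-transport genes were below 0, with a median of -0.88, while the 4 LC3 and GABARAP genes were split evenly around a median of -0.14. Restricted to genes detected on all 4 arrays, 13 of 15 lysosomal and 7 of 11 autophagy genes were below 0, beside 49.1% of all such genes. Spread between probes of 1 gene, over 3502 genes with several detected probes, was 0.31 on the log2 scale for this difference. Those probes were read on the same 4 arrays. The spread therefore holds no variation between cultures or arrays, and a single-gene difference above it is not thereby settled. A second Ulk1 probe, detected on all 4 arrays, had -0.59. With the authors' processed values Ctsa (-1.14) and Npc2 (-1.18) stayed past 2-fold downward, where 1.31% of all genes were. Lamp1 (-0.85), Ulk1 (-0.83), Gabarapl2 (0.34) and Ctss (0.53) were within 2-fold with those values.

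**Figure D4:**
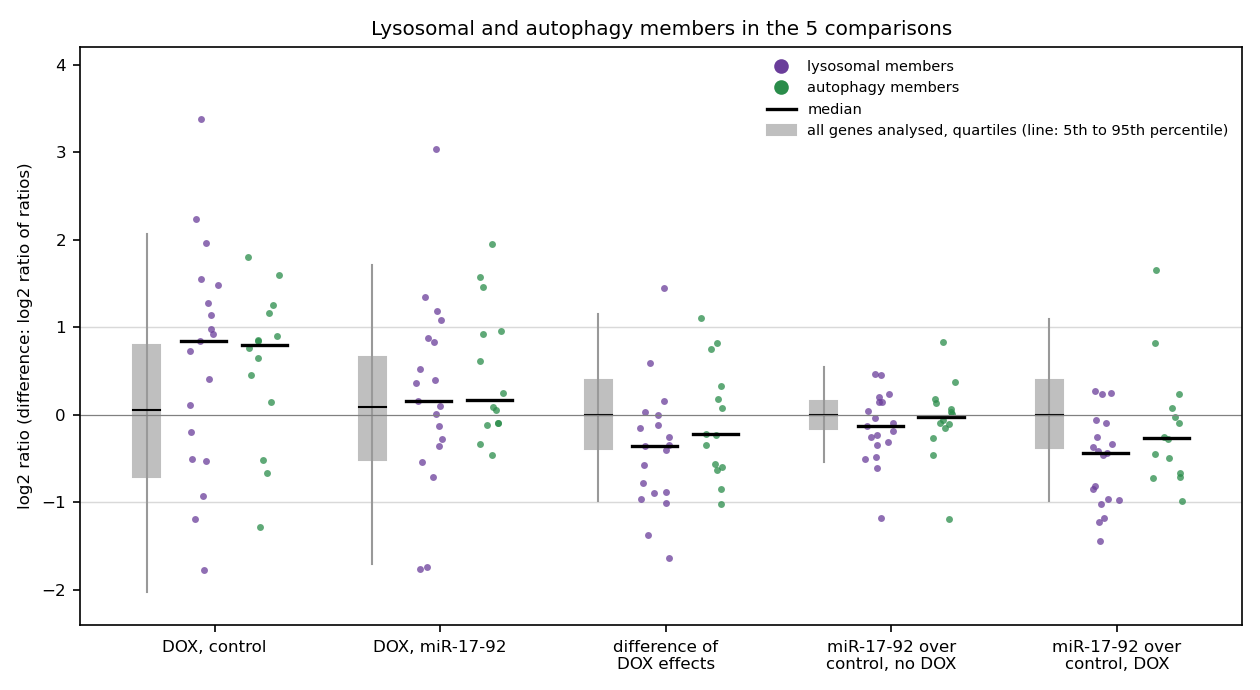
Log2 ratio of each lysosomal member (purple) and autophagy member (green) in the 5 comparisons, with black lines at the medians. Grey boxes give the quartiles and thin lines the 5th to 95th percentile of all 8674 genes. With DOX, 16 of 19 lysosomal members lie below 0 for miR-17-92 over control, whereas without DOX the medians are -0.13 and -0.03.

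The vectors were also compared within each slide. Without DOX, with MYC on, 0 of 19 lysosomal genes were 2-fold higher in miR-17-92 cells and 1 of 19 was lower (Ctss, detected on the control array alone). Of the autophagy genes 0 of 14 were higher and 1 of 14 was lower (Gabarapl2, undetected in miR-17-92 cells). Of all genes 1.18% were 2-fold higher and 1.04% lower, 2.21% together. Medians were -0.13 for lysosomal and -0.03 for autophagy genes, with 12 of 19 and 7 of 14 below 0, beside 50.2% of all genes. With DOX, 16 of 19 lysosomal genes were lower in miR-17-92 cells than in control cells, where 49.8% of all genes were, and 3 of 19 were higher, where 50.1% of all genes were. Their median was -0.44. Here 4 of 19 were 2-fold lower (Neu1, Npc2, Ctsa and Psap), against 4.83% of all genes, and 0 were 2-fold higher, against 6.36%, or 11.2% in either direction. All 4 were detected on every array. Autophagy genes had 10 of 14 below 0 with a median of -0.27, 0 of 14 at 2-fold lower and 1 of 14, Wipi1, at 2-fold higher. Restricted to genes detected on 4 arrays, 14 of 15 lysosomal and 7 of 11 autophagy genes were below 0, with medians of -0.46 and -0.26. This comparison shares its arrays with the DOX effects, so its values are the same measurements seen from another side. Of the 4 lysosomal genes 2-fold lower with DOX, Neu1 and Npc2 stayed so with the authors' processed values (log2 ratios of -1.21 and -1.001). Ctsa (-0.84) and Psap (-0.76) did not, and 1.80% of all genes were 2-fold lower with those values. The second Psap probe had -0.90 in the main setting.

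Neu1 and Ctsa encode partners: sialidase 1 is active only in a complex with protective protein cathepsin A, which also holds beta-galactosidase. Neu1 had log2 signals of 10.83 and 10.35 without DOX, 11.66 in control cells with DOX and 10.22 in miR-17-92 cells with DOX. With DOX it was 2.71-fold lower in miR-17-92 cells, and without DOX 1.40-fold lower. Ctsa had 7.84 and 8.30 without DOX, 8.76 in control and 7.59 in miR-17-92 cells with DOX. It was 2.25-fold lower in miR-17-92 cells with DOX and 1.38-fold higher without. Glb1, the third member of the complex, was 1.38-fold lower with DOX and 1.24-fold lower without. Npc2 was 2.34-fold lower with DOX in miR-17-92 cells and Psap 2.02-fold lower, against 1.11-fold higher and 1.09-fold lower without DOX. Just short of 2-fold with DOX were Man2b1 (1.96-fold lower), Lamp1 (1.94-fold lower) and, of the autophagy genes, Ulk1 (1.98-fold lower). Second probes of Man2b1 and Ulk1, detected on all 4 arrays, were past 2-fold, at log2 ratios of -1.12 and -1.13. Weaker Npc1 probes had -1.27 and -0.90. Weaker Lamp2 probes detected on all 4 arrays had -1.09, -0.51, -1.12 and -0.63. The counts of 2-fold lower genes therefore depend on the probe chosen. Wipi1 ran against these lower genes, 3.14-fold higher in miR-17-92 cells with DOX and 1.78-fold higher without. Its second-brightest probe, undetected in control cells with DOX, gave log2 ratios of 1.90 and 0.76.

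Lysosomal and autophagy genes had near-equal medians for the DOX effect in both lines, with a lysosomal minus autophagy median of 0.04 in control and -0.01 in miR-17-92 cells. That value was -0.14 for the difference of both DOX effects and -0.17 for miR-17-92 over control with DOX.

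Other genes of the pathway were taken from 7 further lists, whose counts are read against the same 19.9% and 18% of all genes in control cells and 14.8% and 12.8% in miR-17-92 cells. Of 33 other hydrolases and activators, 23 were analysed. In control cells 11 were 2-fold higher and 3 lower, with a median of 0.88, and in miR-17-92 cells 6 were higher and 2 lower, with a median of 0.28. Lipa, the lysosomal acid lipase, was detected with DOX only, at least 9.18-fold higher in control and at least 4.21-fold higher in miR-17-92 cells. Acp5, a tartrate-resistant acid phosphatase, was also detected with DOX only, at least 2.84-fold and at least 1.37-fold higher. Lgmn, legumain, a protease that cuts after asparagine, was detected without DOX only, lower by at least 2.78-fold in control and at least 3.33-fold in miR-17-92 cells. Arsb, arylsulfatase B, was likewise detected without DOX only, at least 2.32-fold and at least 1.30-fold lower. With DOX, 18 of these 23 hydrolases were lower in miR-17-92 than in control cells, where 49.8% of all genes were. Of the 23, 4 were 2-fold lower, against 4.83% of all genes, and 0 were 2-fold higher, against 6.36%.

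Of 17 other membrane proteins 14 were analysed, with 6 higher and 0 lower by 2-fold in control cells (median 0.64) and 3 higher and 0 lower in miR-17-92 cells (median 0.58). Ctns, the cystine transporter, had log2 ratios of 1.97 in control and 0.58 in miR-17-92 cells, and Slc17a5, the sialic acid transporter, 1.80 and 1.05. Of 15 other V-ATPase subunits and accessory proteins 13 were analysed, with 5 higher and 0 lower in control cells (median 0.88) and 1 higher and 0 lower in miR-17-92 cells (median 0.52). Atp6ap1, an accessory protein of the pump, had log2 ratios of 1.46 and 0.79, and Atp6v0a2, a membrane-sector subunit, 1.45 and 0.88.

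Genes that tag and sort hydrolases on their way to the lysosome had medians below 0 in both lines. Of 10 listed 9 were analysed, with 0 higher and 3 lower in control cells (median -0.16) and 0 higher and 4 lower in miR-17-92 cells (median -0.36). On the 8 detected on all 4 arrays the medians were -0.02 in control and -0.29 in miR-17-92 cells. Of these 8, 4 were above 0 in control and 3 in miR-17-92 cells. The control medians were smaller than the 0.33 spread between probes of 1 gene in that comparison. Gnptab and Nagpa, the enzymes that build the mannose 6-phosphate tag, had log2 ratios of -1.70 and -1.83 in control and -2.02 and -2.001 in miR-17-92 cells. Gga2, an adaptor that carries tagged enzymes out of the Golgi, had -2.13 and -1.36. Sort1, the sorting receptor sortilin, had a log2 ratio of -0.76 in control cells but was detected in miR-17-92 cells without DOX alone, so no fold is given for control cells. The receptors M6pr and Igf2r, which bind the tag and are named for this role after their values were seen, had 0.70 and 0.46 in control cells and 0.21 and -0.36 in miR-17-92 cells.

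Of 28 other autophagy genes 23 were analysed, with 6 higher and 0 lower in control cells (median 0.46) and 1 higher and 1 lower in miR-17-92 cells (median 0.35). Atg9a, a membrane protein that supplies lipid to the growing autophagosome, was detected with DOX only, at least 1.55-fold higher in control and at least 1.32-fold higher in miR-17-92 cells. Plekhm1, an adaptor for fusion with the lysosome, had log2 ratios of 1.70 and 0.94, and Atg2a, a lipid transfer protein, 1.27 and 0.63. Of 8 other receptors 6 were analysed, with 4 higher and 0 lower in control cells (median 1.05) and 1 higher and 0 lower in miR-17-92 cells (median 0.65). Calcoco1, a receptor for the endoplasmic reticulum, was undetected in control cells without DOX and at least 4.12-fold higher with it, and 1.99-fold higher in miR-17-92 cells. Bnip3l, a receptor for mitochondria, had log2 ratios of 1.18 and 1.23. Of 22 genes of the TFEB family and of mTORC1 signalling at the lysosome 18 were analysed, with 2 higher and 1 lower in control cells (median 0.10) and 0 higher and 1 lower in miR-17-92 cells (median -0.01). Zkscan3, a repressor of autophagy genes, had log2 ratios of 1.62 and 0.93, Fnip1, a partner of folliculin, 1.49 and 0.98, and Rragb, a Rag GTPase, -1.50 and -1.84. On the genes detected on all 4 arrays, the counts of 2-fold higher and lower genes in control cells were 6 and 1 of 13 hydrolases and 6 and 0 of 12 membrane proteins. They were 4 and 0 of 12 V-ATPase genes, 0 and 3 of 8 sorting genes, 5 and 0 of 20 other autophagy genes and 3 and 0 of 5 receptors. Of all such genes 17.2% were higher and 18.3% lower. In miR-17-92 cells the counts were 3 and 1 for hydrolases, 3 and 0 for membrane proteins and 1 and 0 for V-ATPase genes. For sorting genes, other autophagy genes and receptors they were 0 and 3, 0 and 1, and 1 and 0. The shares of all such genes there were 12.3% and 12.02%.

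**Figure D5:**
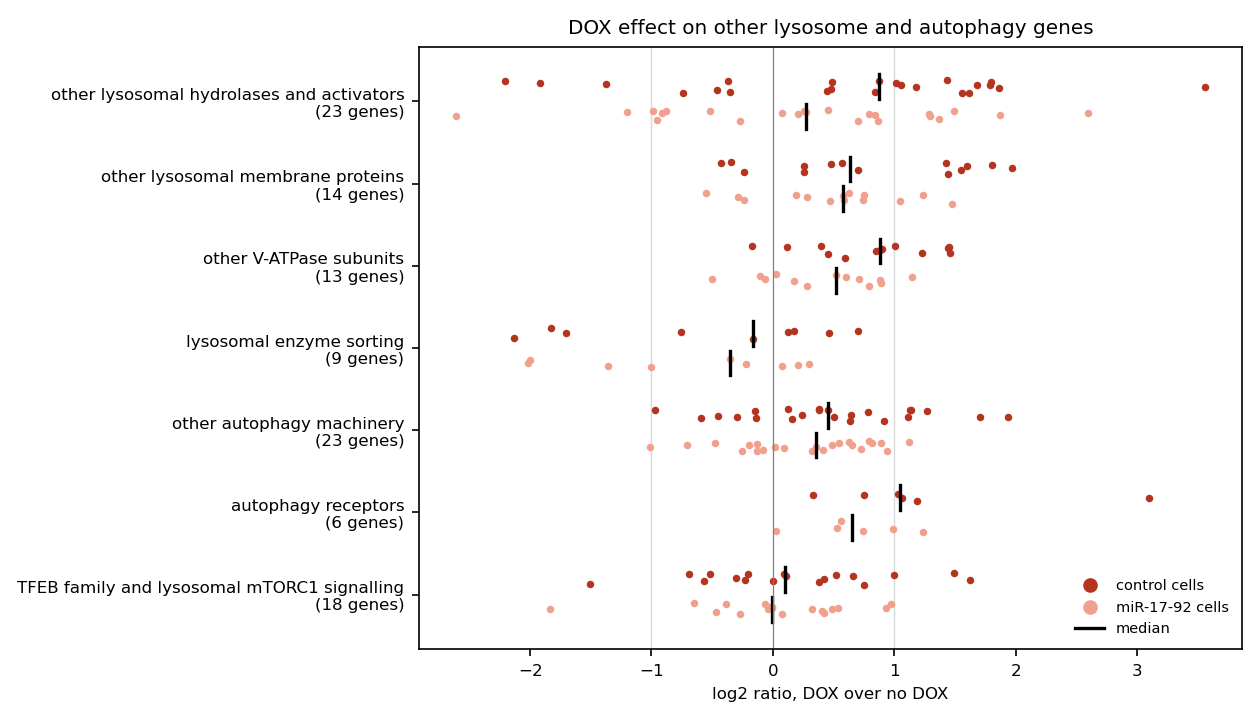
Log2 ratio of DOX over no DOX for the analysed genes of 7 further lists of lysosome and autophagy genes, in control cells (dark) and miR-17-92 cells (light), with black lines at the medians and the number of genes beside each list. Medians in control cells run from -0.16 for enzyme sorting to 1.05 for autophagy receptors.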

How the data were processed

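Per the labels' protocols, biotin-labelled cRNA of total RNA was read on Illumina mouse bead arrays, 1 per group. GenomeStudio is named in the submitters' processing notes. Per the file headers, the deposited table used here gives every probe's mean bead intensity on each array, not normalized, and a detection p-value for it. Detection columns carry no sample names and were linked to signals by order: p never increased with its own array's signal in any of the 4 arrays. The authors' processed intensity values, a second deposited table, kept the probe order of each array (0 rank breaks).

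Signals were background-corrected with limma 3.58.1 (normexp by detection p-value, offset 16), log2-transformed and quantile-normalized (R 4.3.3). Of 45281 probes, 34885 had 1 gene in the annotation, 18 several and 10378 none; 34807 matched a current symbol. The brightest detected probe stood for a gene. A ratio with 1 side undetected was given as a bound against the lowest detected signal of that array. No test was run, because each group had 1 array. Members and lists were chosen with earlier results of these data known. The text names every member and, of each wider list, up to 4 genes with the largest absolute log2 ratio in control cells; M6pr and Igf2r were added for their role. Background correction and normalization were tried on simulated arrays in which a small share of probes had known fold changes. In the data a larger share of genes differed with DOX. Probe choice, the detection filter and the bounds were not tried on simulated data. The 9 alternatives tried were no background correction, an offset of 50, median scaling, the authors' processed values, the mean of probes, detection on all 4 arrays, no detection filter, a detection p-value of 0.05 and a 1.5-fold mark. Promoter windows came from RefSeq (GRCm38.p6). The number of arrays limits the precision.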

Additional observations from a re-analysis of the deposited data

Results flagged for a closer look

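For 7 of the 27 members detected on all 4 arrays (25.9%), 3 lysosomal and 4 autophagy genes, the DOX effect had opposite signs in the lines. The same held for 1271 of all 6946 genes detected on all 4 arrays (18.3%). With 1 array per group the differences were not tested. For 6 of the 7, all but Ctsa, the effect in miR-17-92 cells was no larger than the 0.32 spread between probes of 1 gene in that comparison, so its sign there is not settled. That spread holds no variation between cultures or arrays, so the sign for Ctsa is not settled by it either. Lamp1 had a log2 DOX effect of 0.73 in control and -0.28 in miR-17-92 cells, a difference of -1.004. Ctsa had 0.92 and -0.71, a difference of -1.63, and its weaker probe, detected on 2 arrays, had 0.47 and -1.08. Neu1 had 0.84 and -0.12, a difference of -0.96. Ulk1 had 0.90 and -0.12, a difference of -1.02, and its second probe had 1.16 and 0.57, so that its effect in miR-17-92 cells became 0.23 with the mean of probes. Atg5 had -0.66 and 0.09, a difference of 0.75, and its effect in miR-17-92 cells was -0.12 with the authors' processed values and -0.19 with median scaling. Atg16l1 had 0.76 and -0.09, a difference of -0.85. Becn1 had 0.15 and -0.09, a difference of -0.24, within the 0.31 spread between probes of 1 gene. Ctss and Hexa also had opposite signs, on signals not detected on every array.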

How the results depend on the processing

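Of 156 values recomputed under the alternatives, 146 moved by less than the spread between probes (counts by less than 1.5 times) and 10 moved by more. Signs changed for 6 medians near 0. These were the DOX effect of lysosomal genes in miR-17-92 cells (-0.06, authors' values) and the autophagy median for miR-17-92 over control without DOX (0.03 on all 4 arrays, 0.01 with no filter). The lysosomal minus autophagy median in miR-17-92 cells was 0.10 with median scaling, 0.22 with the mean of probes and 0.04 with no filter. In control cells the autophagy median of the DOX effect was 0.41 with the authors' processed values. Lysosomal genes past 2-fold upward were then 4, and 11 at 1.5-fold, and autophagy genes 1 and 9. With the authors' values 10.6% of all genes were 2-fold higher in control cells. The share of all genes past 1.5-fold was not computed, so the counts at that mark have no background. In miR-17-92 cells lysosomal genes past 2-fold upward were 2 on genes detected on all 4 arrays. Autophagy genes were 1 there, 1 without background correction, 1 with the authors' values and 6 at 1.5-fold. In miR-17-92 cells the shares of all genes 2-fold higher were 12.3% on all 4 arrays, 8.69% without background correction and 7.26% with the authors' values. Fewer genes enter on all 4 arrays, and a lower mark admits more; the cause of the other moves was not tested. The authors' values moved the median of all genes to -0.12 in control and -0.06 in miR-17-92 cells. They moved the share of higher among 2-fold calls from 52.4% to 40.4% in control cells, from 53.6% to 41.0% in miR-17-92 cells and from 59.6% to 71.2% for the difference. The lysosomal median stayed between 0.62 and 0.84 for DOX in control cells, between -0.40 and -0.28 for the difference and between -0.46 and -0.29 for the vector with DOX. In miR-17-92 cells it ran from -0.06 to 0.40, so its sign is not settled. Uvrag turned sign with the mean of probes, to 0.86 for the difference and 0.14 for the vector with DOX. Npc2 and Sqstm1 turned sign in miR-17-92 cells under the authors' values (-0.06 and -0.10) and median scaling (-0.13 and -0.18). No paired analysis was run. Pairing the DOX effect over both lines was possible but was not done, since that would treat the vectors as alike. No array could be left out, because each group had 1 array. Genes near background, among them Ctss, Hexa, Atg7 and Tfeb, have a bound or no fold in 1 or more comparisons.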
